A study of Mus musculus with 24 samples.

Results

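The genes described here are 56 collagens and other extracellular matrix genes, chosen by symbol from a list that covers collagens, elastic fibre proteins, proteoglycans, adhesive and matricellular proteins, basement membrane proteins, crosslinking enzymes, and metalloproteinases with their inhibitors. Of the 56 genes, 51 had a probe on the array and 47 had a probe above the background limit on at least 3 of the 24 arrays. These 47 genes, with 68 tested probes, stood among 13465 tested genes with 18730 tested probes. Lama3, Loxl2, Fn1, Col6a3 and Col8a1 had no probe in the table and were not analysed here. Col13a1, Fbln5, Postn and Vcan had probes above the limit on fewer than 3 arrays and were not tested. Values are log2 of the deposited intensity, and the background limit was a log2 signal of 7.88. Each gene is given by its probe of highest mean signal unless another probe is named, and signals of different probes are not on a common scale.

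The extracellular matrix of the lung is the protein scaffold around its airways, vessels and air sacs. Fibrillar collagens give it tensile strength, elastic fibres let it recoil after each breath, and a thin basement membrane of type IV collagen, laminins, nidogens and perlecan lies under epithelium and endothelium. Lysyl oxidases crosslink collagen and elastin, while metalloproteinases degrade matrix proteins and tissue inhibitors (TIMPs) block them. Fibroblasts and smooth muscle cells are the main sources of fibrillar and elastic proteins, and matrix turnover changes during lung inflammation, repair and tumour growth.

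RNA came from normal lung parenchyma of AIRmax and AIRmin mice, lines selected for a strong and a weak acute inflammatory response. The 4 groups of 6 mice, each with 3 females and 3 males by the labels, were AIRmax mice given urethane, AIRmax mice given saline, AIRmin mice given urethane and AIRmin mice given saline. Urethane, a chemical carcinogen used to start lung tumours, was given as 2 intraperitoneal injections of 1 mg per g of body weight 48 h apart, and lungs were taken on day 21 after treatment. Each array is a separately numbered mouse, and ages are not in the labels used here.

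Arrays correlated with each other at 0.935 to 0.994, and none were duplicates. All 10 tested markers of alveolar type 1 and 2 cells and all 12 tested fibroblast markers were above background on every array. Mouse 20, an AIRmin saline mouse labelled female, had a log2 signal of 7.91 for Xist and 12.80 for Ddx3y. Both signals lay within the range of the males, against its label, which was kept in the fits. The other 11 females had Xist signals between 10.46 and 12.34 and Ddx3y signals between 9.94 and 10.85, and the 12 males had Xist signals between 7.74 and 8.06 and Ddx3y signals between 12.77 and 13.38. Markers of stratified squamous epithelium were high in 10 mice, whose list score (the mean deviation of the list's genes from their medians over all mice) was above 1. That score ran from -0.27 to 3.90 in AIRmax urethane mice, from -0.27 to 1.06 in AIRmax saline mice, from -0.26 to 3.28 in AIRmin urethane mice and from -0.19 to 4.29 in AIRmin saline mice. Leaving those mice out kept 4 AIRmax urethane, 5 AIRmax saline, 4 AIRmin urethane and 1 AIRmin saline mice. AIRmax urethane mouse 4 also had a hepatocyte marker score of 6.57, against a highest score of 0.23 among AIRmax saline mice and 0.21 among AIRmin saline mice. Values without mouse 20, mouse 4 or the 10 mice are given below for the genes named with them. Other calls of matrix genes also changed and are not all named, and marker lists are given with all mice.

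The first question was whether matrix genes differ between the lines. Over all 24 mice, 10 of the 47 genes differed between AIRmax and AIRmin lungs by limma at an adjusted p under 0.05, against 13.4% of all 13465 tested genes. Emilin1, Lox, Tnc, Mmp3, Col18a1, Col4a1 and Col1a2 were higher in AIRmax, and Fbln2, Lum and Col5a2 were lower. Over all tested genes 6.39% were higher and 7.06% were lower. At an unadjusted p under 0.05 there were 21 of 47, against 28.1% of all tested genes. The median difference, AIRmax minus AIRmin, was 0.03 on the log2 scale over the 47 genes and 0.00 over all tested genes, and 28 of the 47 differences were positive, against 48.8% of all tested genes. In bulk tissue, fewer cells of a type and less RNA per cell cannot be told apart. None of the 47 genes had AIRmax and AIRmin values that did not overlap over 12 mice against 12, against 0.55% of all tested genes.

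**Figure D1:**
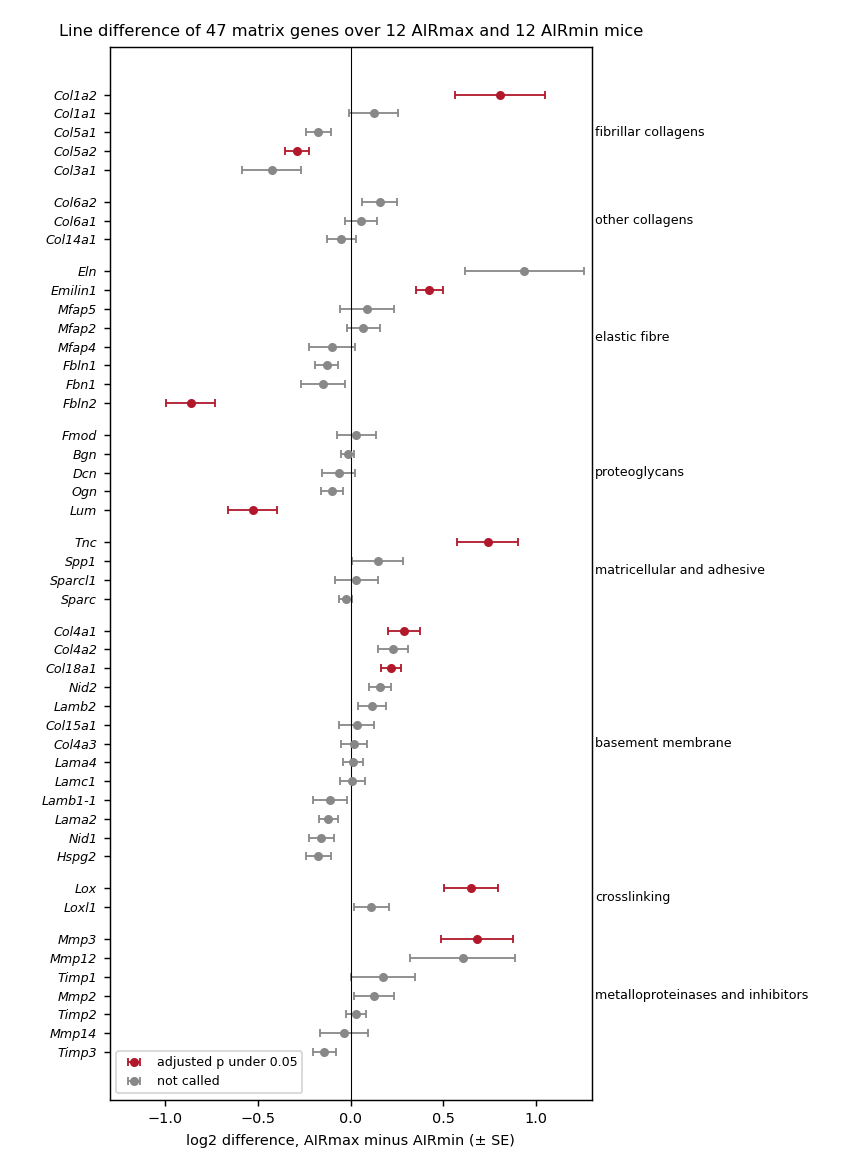
Line difference of the 47 tested matrix genes, as the log2 signal of AIRmax minus AIRmin lungs with the standard error of the model (12 mice a line), grouped by role and ordered by size within a role. Red points passed an adjusted p under 0.05: 7 lie right of 0 (higher in AIRmax) and 3 left of it, and every role except crosslinking has genes on both sides of 0.

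Among the 5 fibrillar collagens, the probes for the chains of type I collagen differed in call. Col1a2, which encodes the second chain of type I collagen, had log2 signals of 7.96 to 10.39 with a median of 9.57 in AIRmax lungs, against 8.15 to 9.79 with a median of 8.45 in AIRmin lungs. Most AIRmax mice were high and most AIRmin mice low, but both ranges overlapped widely. Its difference was 0.81 ± 0.25 (SE, 12 mice a line), a fold of 1.75 (limma adjusted p = 0.0351). Col1a1, which encodes the other chain, had 11.23 to 12.29 with a median of 11.89 in AIRmax lungs and 10.88 to 12.25 with a median of 11.72 in AIRmin lungs. Its difference was 0.12 ± 0.13 (adjusted p = 0.595).

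Type III and type V collagens, which are found in the same fibrils as type I, had the opposite sign. Col5a2, a chain of type V collagen, was lower in AIRmax by 0.29 ± 0.06 (SE; limma adjusted p = 0.00568). Its signal was dim, with 7.59 to 8.06 and a median of 7.90 in AIRmax lungs, against 7.85 to 8.42 and a median of 8.15 in AIRmin lungs. Col5a2 was above the background limit on 7 of 12 AIRmax arrays and 10 of 12 AIRmin arrays, so its true fold is not well measured. Col3a1, the chain of type III collagen, had 9.43 to 10.9998 with a median of 10.33 in AIRmax lungs and 10.45 to 11.15 with a median of 10.68 in AIRmin lungs. Its difference of -0.43 ± 0.16 did not pass (adjusted p = 0.0874), and a dimmer Col3a1 probe gave -0.27 (adjusted p = 0.131). Col5a1, the partner chain of Col5a2, had -0.18 (adjusted p = 0.0946).

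None of the 3 tested collagens outside these classes passed, and none had an unadjusted p under 0.05 by limma. Col6a1 and Col6a2, chains of the beaded filaments of type VI collagen, had line differences of 0.06 and 0.16. Col14a1, a collagen that binds to the surface of fibrils, had -0.05.

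In the elastic fibre group, 2 of 8 tested genes passed, in opposite directions, against 13.4% of all tested genes. Fbln2 encodes fibulin-2, a glycoprotein that binds elastin, fibrillin and basement membrane proteins. It had 9.79 to 10.75 with a median of 10.32 in AIRmax lungs, against 9.92 to 11.96 with a median of 11.21 in AIRmin lungs. Nearly all AIRmin mice lay above the AIRmax median, with some overlap from AIRmin urethane mice. Fbln2 was lower in AIRmax by 0.86 ± 0.13 (SE), or 1.82-fold, the smallest adjusted p of the 47 genes (1.96e-04). A second Fbln2 probe was lower by 0.60 (adjusted p = 5.37e-04), while another, close to background, gave -0.16 (adjusted p = 0.0754), so its probes differed in call, and the mean of the 3 probes differed by -0.54.

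Emilin1 encodes a glycoprotein at the interface of elastin and microfibrils. Its signal was 10.77 to 11.42 with a median of 11.11 in AIRmax lungs, against 10.15 to 11.05 with a median of 10.74 in AIRmin lungs. The upper part of the AIRmin range overlapped the lower part of the AIRmax range. Emilin1 was higher in AIRmax by 0.42 ± 0.07 (SE; limma adjusted p = 7.02e-04), a fold of 1.34.

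Elastin itself had the largest line difference of the 47 genes and did not pass. Eln had 11.45 to 14.06 with a median of 13.27 in AIRmax lungs and 10.67 to 13.43 with a median of 12.33 in AIRmin lungs. The difference was 0.94 ± 0.32 (adjusted p = 0.0590), and the spread between mice of 1 line, treatment and sex was 0.85, the highest of the 47 genes. Without AIRmax saline mouse 12, whose Eln signal of 11.45 was the lowest of its line, the difference was 1.14 and it passed (adjusted p = 0.0124). It also passed without mouse 4 (1.01, adjusted p = 0.0440), mouse 7 or mouse 17. Fbn1, the fibrillin-1 backbone of microfibrils, had 10.84 to 12.09 with a median of 11.58 in AIRmax lungs and 11.32 to 12.11 with a median of 11.70 in AIRmin lungs, a difference of -0.15 ± 0.12 (adjusted p = 0.465). Of the other members, the microfibril-associated genes Mfap2, Mfap4 and Mfap5 had differences of 0.07, -0.10 and 0.09. Fbln1, a relative of fibulin-2, had -0.13 (adjusted p = 0.176).

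Of the 5 tested small leucine-rich proteoglycans, which bind collagen and regulate fibril growth, 1 passed, against 13.4% of all tested genes. Lum encodes lumican and had 9.81 to 10.84 with a median of 10.44 in AIRmax lungs, against 10.02 to 11.67 with a median of 10.96 in AIRmin lungs. The ranges overlapped, with the highest values in AIRmin. Lum was lower in AIRmax by 0.53 ± 0.13 (SE), or 1.44-fold (limma adjusted p = 0.0123). Dcn, which encodes decorin, had 14.56 to 15.16 with a median of 14.88 in AIRmax lungs and 14.45 to 15.28 with a median of 15.01 in AIRmin lungs. Fmod, which encodes fibromodulin, had 8.92 to 9.78 with a median of 9.33 in AIRmax lungs and 8.84 to 9.80 with a median of 9.27 in AIRmin lungs. Decorin (Dcn), osteoglycin (Ogn), fibromodulin (Fmod) and biglycan (Bgn) had differences of -0.07, -0.10, 0.03 and -0.02 by these probes, with both lines in the same range. Another Dcn probe averaged 12.70 in AIRmax urethane and 12.74 in AIRmax saline lungs, against 12.82 and 13.15 in AIRmin. An Fmod probe close to background averaged 7.61 in AIRmax urethane and 7.65 in AIRmax saline lungs, against 7.89 and 7.68 in AIRmin. The sign for Fmod thus differed between its probes and is uncertain. The signals of Bgn were all between 15.69 and 15.95, close to the top of the array's range, where a difference is compressed.

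The matricellular proteins modulate cell contact with the matrix rather than build it. Among them 1 of 4 tested genes passed, against 13.4% of all tested genes. Tnc encodes tenascin-C, a large glycoprotein known for its induction in wounds and tumour stroma. It had 10.17 to 12.07 with a median of 11.08 in AIRmax lungs, against 9.80 to 11.30 with a median of 10.30 in AIRmin lungs. AIRmax mice were the higher ones, with overlap from urethane-treated mice of both lines. Tnc was higher in AIRmax by 0.74 ± 0.16 (SE), a fold of 1.67 (limma adjusted p = 0.00501). A second Tnc probe gave 0.77 (adjusted p = 0.00172) and a dim one 0.19 (adjusted p = 0.210), so its probes too differed in call. Spp1, the phosphoprotein osteopontin, had 12.19 to 13.53 with a median of 13.22 in AIRmax lungs and 12.63 to 13.23 with a median of 12.92 in AIRmin lungs, a difference of 0.14 ± 0.14. Sparc and Sparcl1, collagen-binding glycoproteins, had -0.03 and 0.03, and Sparc signals were near the top of the range, at 15.59 to 15.90 in AIRmax and 15.63 to 15.93 in AIRmin lungs.

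The basement membrane group was the largest, with 13 tested genes. Of these, 2 passed, against 13.4% of all tested genes in either direction, and both were higher in AIRmax. Col4a1 and Col4a2 encode the chains of the main type IV collagen network and lie head to head on the same chromosome. Their promoter windows are printed because both genes also moved together across mice, and the part of the windows in this was not tested. In GRCm38.p6, the RefSeq promoter table places the Col4a1 window at chr8:11312777-11313076 on the minus strand and the Col4a2 window at chr8:11312555-11312854 on the plus strand, with start sites 21 bases apart. Each is 300 bases, printed 5′ to 3′, and the capitals mark the 78 bases that both windows share, read from opposite strands.
Col4a1: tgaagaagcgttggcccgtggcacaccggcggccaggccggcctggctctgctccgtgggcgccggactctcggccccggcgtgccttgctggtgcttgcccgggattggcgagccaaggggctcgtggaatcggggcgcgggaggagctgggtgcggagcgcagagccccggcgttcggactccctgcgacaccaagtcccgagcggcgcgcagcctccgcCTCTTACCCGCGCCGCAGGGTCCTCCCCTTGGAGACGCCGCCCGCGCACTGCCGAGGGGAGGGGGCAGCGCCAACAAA
Col4a2: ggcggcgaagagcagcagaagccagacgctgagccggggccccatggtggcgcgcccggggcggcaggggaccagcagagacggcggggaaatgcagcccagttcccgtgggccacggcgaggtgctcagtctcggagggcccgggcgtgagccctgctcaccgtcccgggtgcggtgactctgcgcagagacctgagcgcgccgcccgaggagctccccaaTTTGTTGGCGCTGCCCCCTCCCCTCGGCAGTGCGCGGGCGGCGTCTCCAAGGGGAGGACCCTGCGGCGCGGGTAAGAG
Searched on both strands, the letters CCAAT occurred 1 time in each window, GGGCGG occurred 1 time in the Col4a1 window and 3 times in the Col4a2 window, and TATAAA occurred in neither. Of 32851 promoter windows in the table, 37.4% held CCAAT, 35.7% held GGGCGG and 13.6% held TATAAA. Promoter windows were listed for 31 of the 47 genes.

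Col4a1 had 15.04 to 15.79 with a median of 15.30 in AIRmax lungs, against 14.67 to 15.62 with a median of 15.13 in AIRmin lungs. The low end of the range was held by AIRmin saline mice. Col4a1 was higher in AIRmax by 0.29 ± 0.09 (SE), a fold of 1.22 (limma adjusted p = 0.0338). Col4a2 had 14.65 to 15.33 with a median of 14.88 in AIRmax lungs and 14.24 to 15.15 with a median of 14.69 in AIRmin lungs. Its difference of 0.23 ± 0.08 did not pass (adjusted p = 0.0652). It passed without mouse 4 (0.27, adjusted p = 0.0242) and without mouse 23 (0.27, adjusted p = 0.0215), as it did without mouse 8 or mouse 14.

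Col18a1 encodes the collagen from which endostatin is released, and it is a component of vascular and epithelial basement membranes. Its signal was 12.85 to 13.67 with a median of 13.12 in AIRmax lungs, against 12.63 to 13.22 with a median of 12.97 in AIRmin lungs. The ranges overlapped, and the highest values were in AIRmax urethane mice. Col18a1 was higher in AIRmax by 0.22 ± 0.05 (SE; limma adjusted p = 0.00867), and its second probe by 0.21 (adjusted p = 0.0166). The other genes of the group had small differences of both signs. Nid2 and Nid1, the nidogens that link laminin to type IV collagen, had 0.16 (adjusted p = 0.0807) and -0.16 (adjusted p = 0.129). Hspg2, which encodes perlecan, had -0.17 (adjusted p = 0.0904). The laminin chains Lama2, Lama4, Lamb1-1, Lamb2 and Lamc1 lay between -0.12 and 0.12. Col4a3, a type IV chain of the alveolar and glomerular basement membrane, had 0.02, and Col15a1, a relative of Col18a1, had 0.03.

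Of the crosslinking enzymes, Lox passed and Loxl1 did not. Lox encodes lysyl oxidase and had 12.08 to 13.80 with a median of 12.75 in AIRmax lungs, against 11.59 to 12.82 with a median of 12.24 in AIRmin lungs. Most AIRmax mice lay above most AIRmin mice. Lox was higher in AIRmax by 0.65 ± 0.15 (SE), a fold of 1.57 (limma adjusted p = 0.00604). Loxl1, a lysyl oxidase needed for elastic fibre renewal, had 0.11 ± 0.09 (adjusted p = 0.486).

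Of the 7 metalloproteinases and inhibitors, 1 passed, Mmp3, against 13.4% of all tested genes. Mmp3 encodes stromelysin, which degrades proteoglycans and activates other proteases. It had 9.35 to 11.09 with a median of 10.04 in AIRmax lungs, against 8.52 to 10.46 with a median of 9.27 in AIRmin lungs. AIRmin mice were spread over a wide range, and the AIRmax mice lay in its upper part or above it. Mmp3 was higher in AIRmax by 0.68 ± 0.19 (SE), a fold of 1.60 (limma adjusted p = 0.0246), and all 3 of its probes passed, with differences between 0.64 and 0.73. Mmp12, the macrophage elastase, had 0.60 ± 0.28 (adjusted p = 0.174). Mmp2, a gelatinase that cleaves type IV collagen, had 13.91 to 14.92 with a median of 14.32 in AIRmax lungs and 13.90 to 14.64 with a median of 14.23 in AIRmin lungs. Mmp14, its membrane-bound activator, had 12.30 to 13.51 with a median of 12.97 in AIRmax lungs and 12.41 to 13.58 with a median of 12.98 in AIRmin lungs. Neither gene separated the lines, with differences of 0.13 and -0.04. The inhibitor Timp1 had 10.61 to 11.96 with a median of 11.16 in AIRmax lungs and 10.27 to 12.15 with a median of 11.01 in AIRmin lungs. Timp3, an inhibitor bound to the matrix, had 15.02 to 15.46 with a median of 15.31 in AIRmax lungs and 15.13 to 15.68 with a median of 15.45 in AIRmin lungs. Timp1, Timp2 and Timp3 had differences of 0.17, 0.03 and -0.14, and none passed.

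**Figure D2:**
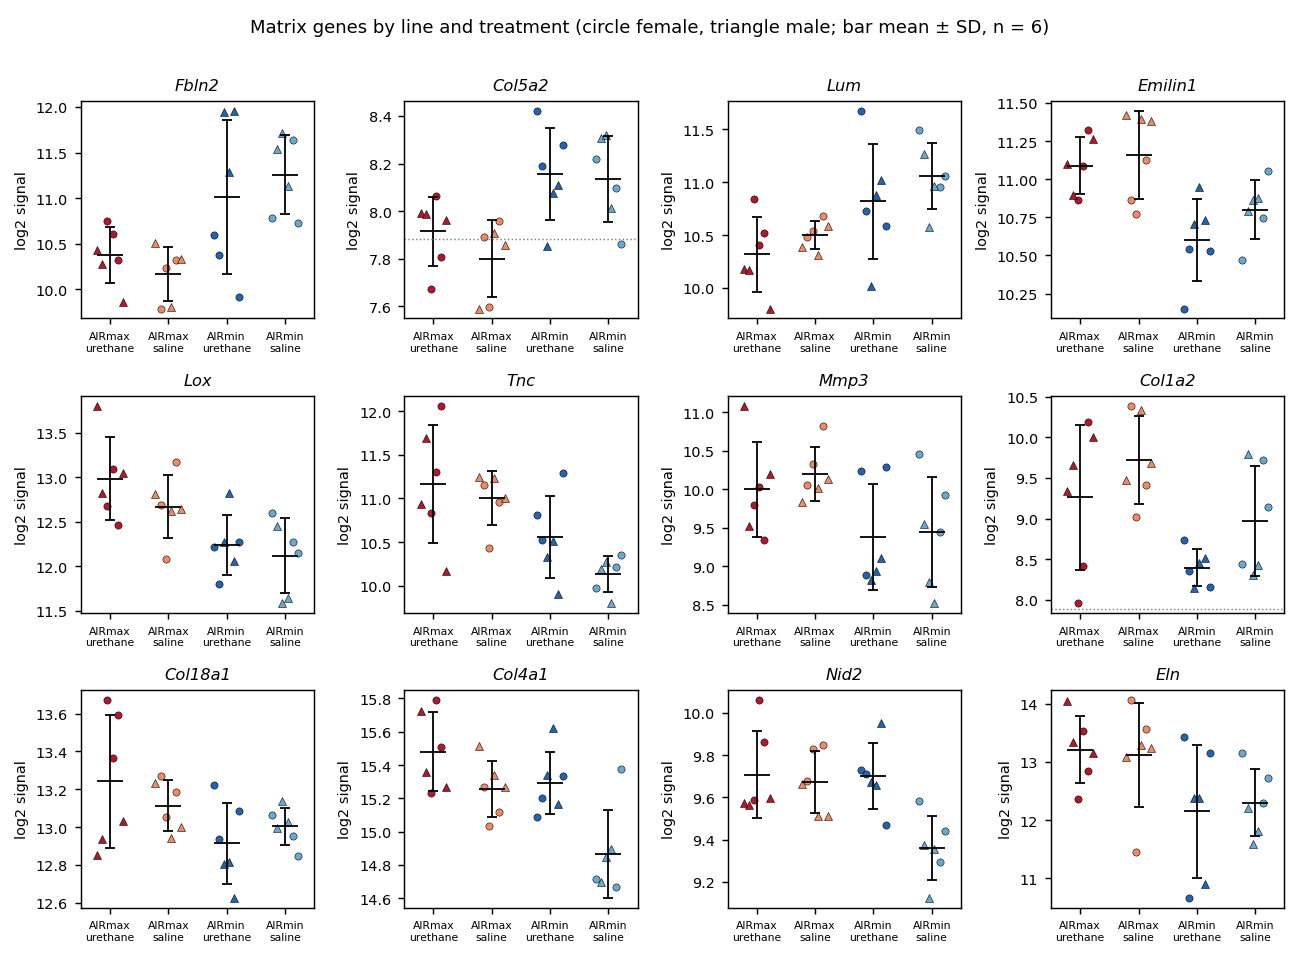
Log2 signal of each mouse for the 11 matrix genes that passed in a line comparison and for Eln, by line and treatment, with the group mean and SD (n = 6). Circles are mice labelled female and triangles mice labelled male, the dotted line is the background limit where it falls within the panel, and Fbln2 shows all AIRmax saline values below all AIRmin saline values.

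The line difference was then tested within each treatment. In saline mice, 5 of the 47 genes passed, against 6.98% of all tested genes, and 12 had an unadjusted p under 0.05, against 20.4%. Tnc, Emilin1 and Nid2 were higher in AIRmax, and Fbln2 and Col5a2 were lower. Fbln2 and Tnc were also the 2 genes whose AIRmax and AIRmin saline values did not overlap, against 3.33% of all tested genes. Fbln2 ran from 9.79 to 10.51 with a median of 10.28 in AIRmax saline lungs, against 10.73 to 11.71 with a median of 11.34 in AIRmin saline lungs. That is a difference of -1.09 ± 0.19 (SE, 6 mice a group), 2.13-fold lower (limma adjusted p = 0.00131). Tnc ran from 10.43 to 11.25 with a median of 11.08 in AIRmax saline lungs, against 9.80 to 10.35 with a median of 10.20 in AIRmin saline lungs. All AIRmax saline mice thus lay above all AIRmin saline mice, by 0.87 ± 0.23 (adjusted p = 0.0269).

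Nid2, which was not called over all mice, passed in saline mice. It had 9.51 to 9.85 with a median of 9.67 in AIRmax saline lungs, against 9.13 to 9.58 with a median of 9.36 in AIRmin saline lungs. The groups overlapped slightly, and the difference was 0.31 ± 0.08 (limma adjusted p = 0.0293). Emilin1 was higher in AIRmax saline mice by 0.36 ± 0.10 (adjusted p = 0.0414), and Col5a2 was lower by 0.34 ± 0.09 (adjusted p = 0.0307).

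In urethane mice, Col18a1 and Emilin1 passed and both were higher in AIRmax, which is 2 of 47 genes against 3.8% of all tested genes. At an unadjusted p under 0.05 there were 16, against 18.3%. Col18a1 ran from 12.85 to 13.67 with a median of 13.20 in AIRmax urethane lungs, against 12.63 to 13.22 with a median of 12.88 in AIRmin urethane lungs, a difference of 0.33 ± 0.07 (limma adjusted p = 0.0156). Emilin1 ran from 10.87 to 11.32 with a median of 11.09 in AIRmax urethane lungs, against 10.15 to 10.95 with a median of 10.62 in AIRmin urethane lungs, a difference of 0.49 ± 0.10 (adjusted p = 0.0104). Both pairs of groups overlapped, as did those of all other genes, against 2.27% of all tested genes that did not overlap. Fbln2 had -0.64 (adjusted p = 0.0646) and Lox 0.74 (adjusted p = 0.0509) in urethane mice.

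Markers of other tissues also differed between the lines in saline mice. There, 14 of 16 tested squamous epithelium markers and 11 of 17 tested skeletal muscle markers passed by limma, all lower in AIRmax. Of all tested genes 6.98% passed there in either direction. In urethane mice none of either list passed by limma, against 3.8% of all tested genes. At an unadjusted p under 0.05 there were 2 of 16 and 0 of 17 in urethane mice, against 18.3% of all tested genes. Line and squamous signal cannot be told apart in saline mice, where 1 AIRmin mouse had a low score. Without the 10 mice of high squamous score no saline difference passed, with 1 AIRmin saline mouse left. The saline differences were then -1.48 for Fbln2, -0.48 for Col5a2, 0.41 for Nid2 and 0.39 for Emilin1, as large as or larger than with all mice, and 0.48 for Tnc, against 0.87 with all mice. In urethane mice Col18a1 had 0.34 (adjusted p = 0.140) and Emilin1 0.52 (adjusted p = 0.0547) without them. Over both treatments the line differences without the 10 mice were -1.25 for Fbln2, 1.11 for Lox and 1.44 for Mmp3. The last 2 were more than 1.5 times the value with all mice. Emilin1 had 0.46, Tnc 0.60, Lum -0.34, Col4a1 0.32 and Col5a2 -0.29. This fit used the 4 groups with a sex term and weighted saline and urethane mice equally. The saline part of each value therefore rests on the 1 AIRmin saline mouse. With the squamous score as a covariate, Fbln2, Lox, Emilin1, Tnc, Col18a1 and Col5a2 still passed over all mice, with Fbln2 at -0.85, Lox at 0.67 and Tnc at 0.74. The other 4 of the 10 did not pass, with Mmp3 at 0.73 (adjusted p = 0.0539), Col1a2 at 0.72 (0.128), Col4a1 at 0.23 (0.164) and Lum at -0.37 (0.110). In saline mice the covariate left Fbln2 at -1.06 (limma adjusted p = 0.0431), the only gene that passed. Tnc then had 0.88 (0.204), Col5a2 -0.43 (0.0984), Nid2 0.26 (0.313) and Emilin1 0.19 (0.557), the last against 0.36 without the covariate. Without the 10 mice, Col18a1 had a line difference of 0.05, Col1a2 of 1.41 and Eln of 1.91, again with 1 AIRmin saline mouse left. Without mouse 20, Col4a1 had 0.26 (adjusted p = 0.0679) and Mmp3 0.62 (0.0502) over all mice, and neither passed. In saline mice Fbln2 then passed with -0.94, while Tnc had 0.88, Emilin1 0.36, Col5a2 -0.33 and Nid2 0.27, close to their values with all mice, and did not pass (adjusted p between 0.0578 and 0.0850).

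The call of Col18a1 also depended on the sex term of the model. Without that term its difference was still 0.22 over all mice (limma adjusted p = 0.108) and 0.33 in urethane mice (adjusted p = 0.167). Mmp3 had 0.68 (adjusted p = 0.0588) without it, and Col4a2 passed with 0.23 (adjusted p = 0.0473).

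Some calls lay near the threshold and were lost when any 1 of several mice was left out. Over all mice, the call of Col1a2 was lost when any 1 of mice 3, 8, 11, 13, 16, 17, 18, 19 and 21 was left out, with adjusted p up to 0.0697, and that of Col4a1 without any 1 of mice 1, 3, 5, 7, 9, 10, 11, 13, 15 and 20, with adjusted p up to 0.0679. In saline mice, Emilin1 was lost without any 1 of 10 of the 12 mice compared, Tnc without mouse 3, 11, 19, 20, 21 or 22, Nid2 without mouse 9, 12, 18, 20, 22 or 24, and Col5a2 without mouse 3, 9, 10, 12, 18 or 20. Col3a1 passed without mouse 6 (adjusted p = 0.0445). Fbln2, Lox, Tnc, Lum, Emilin1, Col18a1 and Col5a2 kept their call over all mice whichever mouse was left out.

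Some markers of cells that make matrix also differed between the lines over all mice, as did 13.4% of all tested genes. Of 10 tested endothelial markers, Vwf and Pecam1 were higher in AIRmax, by 0.52 and 0.33, beside the higher Col4a1 and Col18a1, and the differences of the list ran from -0.22 to 0.52. In urethane mice, where Col18a1 passed, the endothelial marker Sox17 was lower in AIRmax, with a difference of -0.61 (limma adjusted p = 0.00249). Of 12 tested fibroblast markers, Dpt and Meox2 were lower, with differences of -0.52 and -0.36, and Vegfd was higher by 0.40. Of 12 tested smooth muscle and pericyte markers, Actg2 and Lmod1 were lower, with differences of -0.50 and -0.45. The part of these markers in the matrix differences was not tested.

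The next question was whether urethane changed matrix genes by day 21. No matrix gene passed over both lines, against 0.743% of all tested genes by limma, and 7 of 47 had an unadjusted p under 0.05, against 12.6% of all tested genes. The median difference, urethane minus saline, was 0.02 over the 47 genes and 0.00 over all tested genes. No gene had urethane and saline values that did not overlap over 12 mice against 12, against 0.0668% of all tested genes.

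The type IV collagen chains were among the genes with the smallest p. Col4a2 had 14.69 to 15.33 with a median of 14.94 in urethane lungs, against 14.24 to 14.99 with a median of 14.71 in saline lungs. The difference was 0.31 ± 0.08 (SE, 12 mice a treatment; limma adjusted p = 0.0850). Col4a1 had 15.09 to 15.79 with a median of 15.34 in urethane lungs, against 14.67 to 15.51 with a median of 15.08 in saline lungs, a difference of 0.32 ± 0.09 (adjusted p = 0.104). The lowest values of both genes were in AIRmin saline mice, and the highest in AIRmax urethane mice. Without AIRmin saline mouse 23, the highest of its group for Col4a1, the differences were 0.38 for Col4a1 (adjusted p = 0.0169) and 0.35 for Col4a2 (adjusted p = 0.0290), and both passed. Without AIRmax urethane mouse 4 they were 0.36 (adjusted p = 0.0469) and 0.35 (adjusted p = 0.0340), and both passed as well.

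Nid2 had 9.47 to 10.06 with a median of 9.67 in urethane lungs, against 9.13 to 9.85 with a median of 9.51 in saline lungs, a difference of 0.19 ± 0.06 (limma adjusted p = 0.175). Of the 13 basement membrane genes, none passed and 3 had an unadjusted p under 0.05 by limma, against 12.6% of all tested genes. Their median difference after urethane was 0.09 over both lines, 0.03 in AIRmax and 0.18 in AIRmin, and 11 of 13 were positive over both lines, against 48.0% of all tested genes. No gene of the group had an unadjusted p under 0.05 in AIRmax, against 8.51% of all tested genes. In AIRmin 4 had one, against 11% of all tested genes. The squamous score in AIRmin had a median of -0.18 in urethane mice and 3.61 in saline mice, and its part was not tested. No tested gene passed for a difference of the urethane response between the lines.

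Among the proteases, Mmp12 had 8.91 to 11.85 with a median of 10.02 in urethane lungs, against 8.51 to 10.40 with a median of 9.04 in saline lungs. The difference of 0.89 ± 0.28, a fold of 1.86, was the largest of the 47 genes and did not pass (limma adjusted p = 0.177), with 4 urethane mice, 2 of each line, above every saline mouse. The alveolar macrophage marker score had medians of -0.18 in AIRmax urethane mice, -0.25 in AIRmax saline mice, -0.14 in AIRmin urethane mice and 0.25 in AIRmin saline mice, and its part in Mmp12 was not tested. Without the 10 mice of high squamous score, the Mmp12 difference was 0.28 (limma adjusted p = 0.897). Mmp2 had 14.0046 to 14.83 with a median of 14.50 in urethane lungs, against 13.90 to 14.92 with a median of 14.11 in saline lungs, a difference of 0.32 ± 0.11 (adjusted p = 0.200). Mmp3, Mmp14, Timp1, Timp2 and Timp3 had urethane differences of -0.13, -0.01, -0.15, -0.01 and 0.12.

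**Figure D3:**
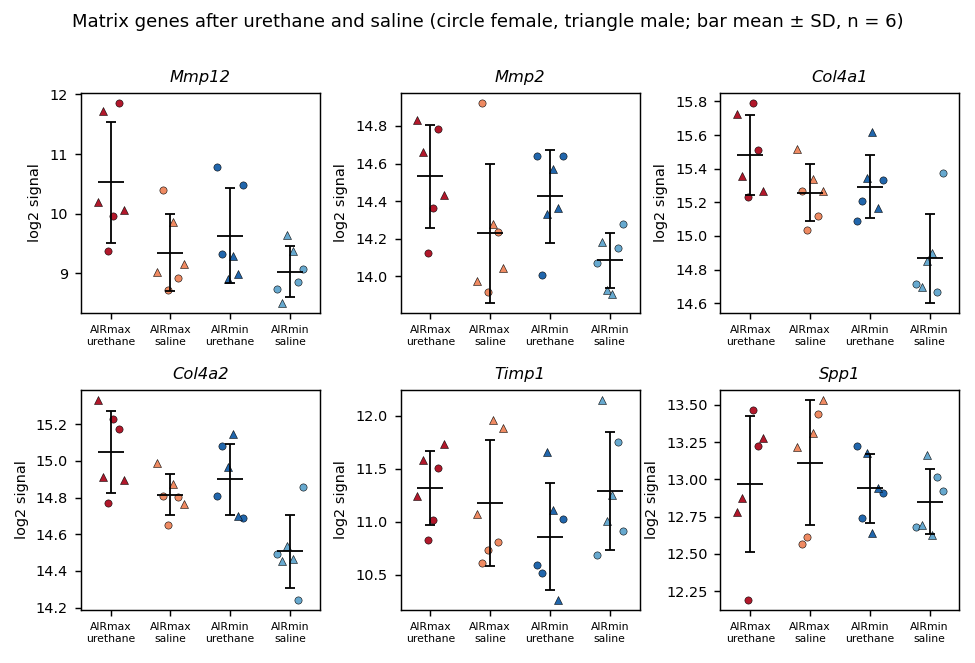
Log2 signal of each mouse for Mmp12, Mmp2, Col4a1, Col4a2, Timp1 and Spp1 by line and treatment, with the group mean and SD (n = 6; circles labelled female, triangles labelled male). Mmp12 reaches 11.85 in AIRmax urethane mice and 10.40 in AIRmax saline mice, and the AIRmin saline mice hold the lowest Col4a1 and Col4a2 values.

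The fibrillar and elastic genes had urethane differences of both signs. Col1a2 had 7.96 to 10.18 with a median of 8.49 in urethane lungs, against 8.31 to 10.39 with a median of 9.44 in saline lungs, a difference of -0.52 ± 0.25 (limma adjusted p = 0.398). Col1a1, Col3a1 and Eln had -0.06, 0.05 and -0.03. Lox and Tnc had 0.22 and 0.29, and Lum and Dcn had -0.21 and -0.11. The groups overlapped for each of these genes.

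Within each line, no matrix gene passed either. In AIRmax mice 0.223% of all tested genes passed, and 2 of 47 matrix genes, Mmp12 and Ogn, had an unadjusted p under 0.05 by limma, against 8.51% of all tested genes. Mmp12 ran from 9.37 to 11.85 with a median of 10.13 in AIRmax urethane lungs, against 8.72 to 10.40 with a median of 9.08 in AIRmax saline lungs, a difference of 1.18 ± 0.40 (adjusted p = 0.341). In AIRmin mice 0.253% of all tested genes passed, and 8 of 47 matrix genes had an unadjusted p under 0.05, against 1479 of the 13465 tested genes (11%). The smallest was that of Nid2, with 9.47 to 9.95 and a median of 9.69 in AIRmin urethane lungs, against 9.13 to 9.58 and a median of 9.36 in AIRmin saline lungs. Its difference was 0.34 ± 0.08 (adjusted p = 0.124), and Col4a1 and Col4a2 had 0.43 and 0.39 (adjusted p = 0.207 for each). No gene had urethane and saline groups that did not overlap in either line, against 0.505% of all tested genes in AIRmax and 1.05% in AIRmin. In AIRmin the squamous score had a median of -0.18 in urethane mice and 3.61 in saline mice, and its part in these values was not tested.

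**Figure D4:**
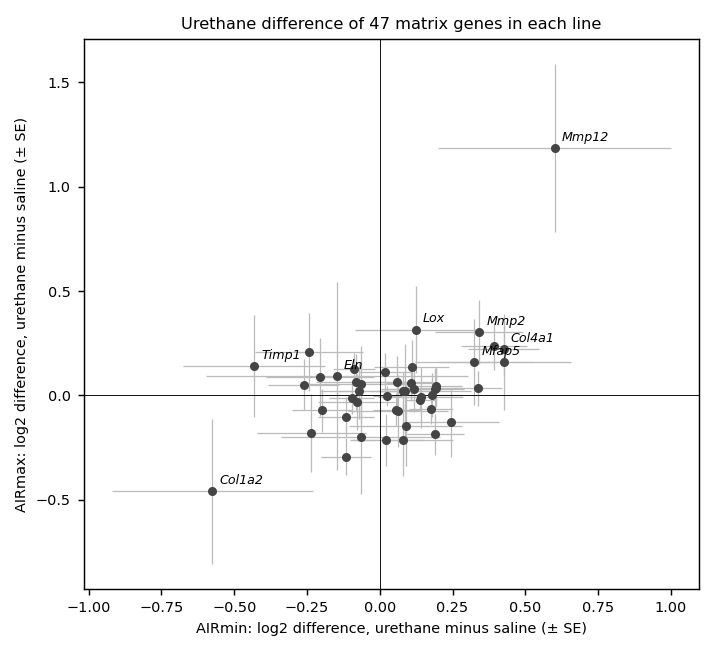
Urethane difference of each of the 47 matrix genes in AIRmax (vertical axis) and AIRmin (horizontal axis), as log2 urethane minus saline with the standard error of the model (6 mice a group). Mmp12 lies at 1.18 and 0.60, Col1a2 at -0.46 and -0.57, and the other genes within 0.5 of 0 on both axes. No gene passed in either line.

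The difference between the urethane differences of the lines (AIRmax minus AIRmin) was tested as an interaction. No matrix gene passed, 0.0% of all tested genes passed, and 5 of 47 matrix genes had an unadjusted p under 0.05 by limma, against 6.31% of all tested genes. Col4a3 had an interaction of -0.37 ± 0.14 (adjusted p = 0.675). It ran from 11.99 to 12.55 with a median of 12.31 in AIRmax urethane lungs and from 12.23 to 12.64 with a median of 12.43 in AIRmax saline lungs. In AIRmin it ran from 12.28 to 12.67 with a median of 12.43 after urethane and from 12.07 to 12.46 with a median of 12.23 after saline, so the sign of its urethane difference was opposite in the lines without passing. Nid2 had -0.30 ± 0.12 (adjusted p = 0.675) and Sparc -0.16 ± 0.07 (adjusted p = 0.780).

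By the labelled sex, no matrix gene passed, against 0.119% of all tested genes by limma, and 11 of 47 had an unadjusted p under 0.05, against 13.1% of all tested genes. Col18a1 had the smallest p, with 12.85 to 13.67 and a median of 13.13 in mice labelled female, against 12.63 to 13.23 and a median of 12.97 in mice labelled male. Its difference, female minus male, was 0.24 ± 0.05 (adjusted p = 0.0782). Timp1 had 10.52 to 11.75 with a median of 10.82 in mice labelled female, against 10.27 to 12.15 with a median of 11.42 in mice labelled male, a difference of -0.49 ± 0.17 (adjusted p = 0.224). Emilin1 had -0.24 (adjusted p = 0.178) and Timp2 -0.18 (adjusted p = 0.177). Without mouse 20, no gene passed either.

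The matrix genes differed widely in how much mice of 1 line, treatment and sex varied. The SD within these cells of 3 mice had a median of 0.23 over the 47 genes and 0.16 over all tested genes. It was 0.06 for Bgn and 0.07 for Sparc, both near the top of the range, and 0.12 for Col18a1. At the other end, Eln had 0.85, Mmp12 0.76, Col1a2 0.65 and Mmp3 0.51. Elastin, macrophage elastase and the second chain of type I collagen were thus the matrix genes least alike among mice treated alike.

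A set of 6 pairs of genes were compared across mice, as deviations from the mean of each line, treatment and sex (24 mice, two-sided permutation tests within these cells, adjusted over 6 pairs). These 6 pairs too were chosen with earlier results of these data known, so their p-values are not independent evidence. Col4a1 and Col4a2, whose start sites lie in the windows printed above, had a Pearson r of 0.832 (permutation adjusted p = 0.00369) and a Spearman rho of 0.822 (adjusted p = 0.00240). Without the 2 mice farthest in Col4a1, r was 0.782. Dcn and Lum, both proteoglycans of fibrillar collagen, had r = 0.843 (permutation adjusted p = 0.00369), rho = 0.822 (adjusted p = 0.00240) and r = 0.783 without the 2 farthest mice. Eln and Fbn1, the core and the scaffold of elastic fibres, had r = 0.707 (permutation adjusted p = 0.00720), rho = 0.772 (adjusted p = 0.00782) and r = 0.616 without the 2 farthest.

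The signals of Col1a1 and Col3a1 were also correlated, while no correlation was found between the probes of Col1a1 and Col1a2. The Col1a2 probe had an SD within cells of 0.65, against 0.34 for Col1a1. How well it reports its chain was not tested. Col1a1 and Col3a1 had r = 0.614 (permutation adjusted p = 0.00720), rho = 0.616 (adjusted p = 0.0130) and r = 0.587 without the 2 farthest mice. Col1a1 and Col1a2 had r = 0.217 (permutation adjusted p = 0.378), rho = 0.240 (adjusted p = 0.329) and r = 0.328 without the 2 farthest. Spp1 and Mmp12, both made by activated macrophages, had r = 0.187 (permutation adjusted p = 0.611) and rho = 0.177 (adjusted p = 0.537), and r = 0.0866 without the 2 farthest. Without the 10 mice of high squamous score (12 mice in cells of at least 2) that value turned to -0.483 (permutation adjusted p = 0.274). Col6a1 and Col6a2, a pair chosen after its value was seen and so given without a p, had r = 0.910 and rho = 0.886, with r = 0.844 without the 2 farthest.

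**Figure D5:**
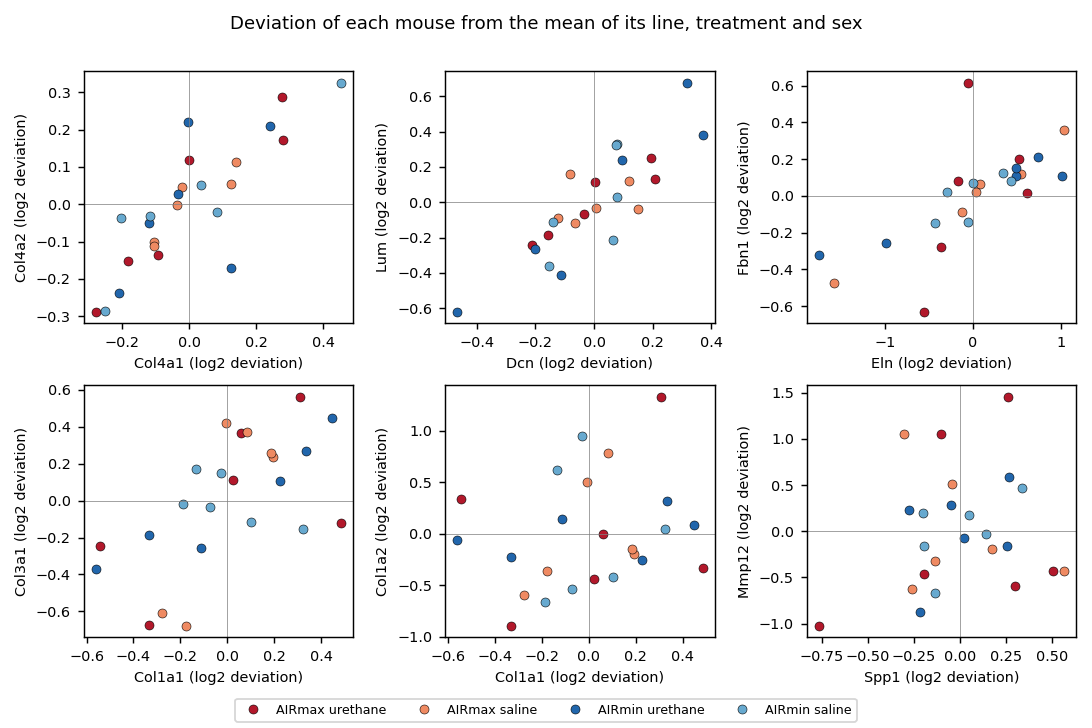
Deviation of each mouse from the mean of its line, treatment and sex, in log2 signal, for 6 pairs of matrix genes (24 mice, coloured by line and treatment). Points for Col4a1 with Col4a2 and for Dcn with Lum lie along a line (r = 0.832 and 0.843), while those for Col1a1 with Col1a2 are scattered (r = 0.217).

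Genes that act on or bind the matrix were read from 4 further lists. Of 19 tested genes for collagen processing, none differed between the lines over all mice by limma, against 13.4% of all tested genes. Of these 19, 3 had an unadjusted p under 0.05, against 28.1% of all tested genes. Of 33 genes of TGF-beta signalling and matrix regulation, 4 were higher in AIRmax and 1 was lower, against 6.39% and 7.06% of all tested genes. Smad2, which carries the TGF-beta signal to the nucleus, was lower by 0.53 ± 0.05 (SE, adjusted p = 3.30e-07). Id1, a target of BMP signalling, was higher by 0.38 ± 0.07 (adjusted p = 9.86e-04), and Acvrl1, an endothelial receptor of the family, by 0.40 ± 0.10 (adjusted p = 0.0114).

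Of 25 tested matrix receptors, 5 were higher in AIRmax and 5 were lower, against 6.39% and 7.06% of all tested genes. Cd44, a receptor for hyaluronan, averaged 11.58 in AIRmax and 12.30 in AIRmin lungs, lower in AIRmax by 0.72 ± 0.08 (SE; limma adjusted p = 7.12e-06). Ddr1, a collagen receptor kinase, averaged 11.20 in AIRmax and 10.72 in AIRmin lungs (adjusted p = 0.00187). Sdc2, a cell surface heparan sulphate proteoglycan, averaged 12.23 in AIRmax and 12.52 in AIRmin lungs (adjusted p = 0.00196). In saline mice Itgb4, an integrin chain of epithelial hemidesmosomes, was lower in AIRmax by 0.50 (adjusted p = 0.00158), beside the lower squamous markers.

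Of 44 other tested matrix genes, 2 were higher in AIRmax and 6 were lower, against 6.39% and 7.06% of all tested genes. Mmp9, a gelatinase stored in neutrophils, averaged 10.84 in AIRmax and 9.73 in AIRmin lungs, higher by 1.11 ± 0.22 (SE; limma adjusted p = 0.00253). Thbs3, a thrombospondin, averaged 10.51 in AIRmax and 10.91 in AIRmin lungs (adjusted p = 2.63e-04). Col17a1, the transmembrane collagen of hemidesmosomes, averaged 9.80 in AIRmax and 10.66 in AIRmin lungs (adjusted p = 6.82e-04), and it too is an epithelial gene. After urethane, Tnn, a tenascin, was the only gene of the 4 lists that passed over both lines, against 0.743% of all tested genes. It averaged 11.15 in urethane and 11.69 in saline lungs, lower by 0.54 ± 0.11 (adjusted p = 0.0184), and in AIRmax mice it averaged 10.79 after urethane and 11.65 after saline (adjusted p = 0.0162). The smooth muscle markers Actg2, Acta2 and Tagln were also lower after urethane, with differences of -0.47, -0.22 and -0.30, and their part in Tnn was not tested.

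Without the 10 mice of high squamous score, Smad2 (-0.59, adjusted p = 0.00453), Mmp9 (1.69, 0.0455) and Col17a1 (-0.99, 0.0307) still passed between the lines by limma. Cd44 (-0.60, 0.0940), Ddr1 (0.54, 0.151), Sdc2 (-0.29, 0.186), Thbs3 (-0.42, 0.118), Id1 (0.24, 0.347) and Acvrl1 (0.24, 0.607) did not. In saline mice Itgb4 had -0.39 (adjusted p = 0.498) without them. Tnn had a urethane difference of -0.62 (adjusted p = 0.120) over both lines and -0.72 (0.0798) in AIRmax without them, and did not pass. The saline part of the line differences without the 10 mice again rests on 1 AIRmin saline mouse. None of the calls printed above for these genes with all mice changed without mouse 20 or without mouse 4. In saline mice, Mmp9 and Thbs3 also passed between the lines with all mice (limma adjusted p = 0.0298 and 0.0288). Without mouse 20 these saline calls were lost (limma adjusted p = 0.0565 and 0.0817).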

How the data were processed

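Each of 24 mice had its lung RNA hybridised to 1 Illumina bead array, and groups and mouse numbers were read from the sample titles. The values used are the intensities of the deposited value table (25697 probes). Per the submitters' processing notes, BeadStudio was used in a version not stated. Per the file headers, the authors deposited 2 further tables, 1 of signals before normalization with a detection p-value per probe, and 1 after quantile normalization that keeps probes at a detection p-value of 0.05. Their 72 per-array columns carry slide and position names that fit no sample label and were not used, so slide could not be a block. Sorted values differed between arrays by at most 0.871%, so the deposited intensities were taken as quantile normalized. Background handling is not stated in the sources used here, and folds of dim probes may be understated.

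The deposited intensities were put on the log2 scale. The mode of all values was 7.4, the SD below it 0.21, and the background limit its upper 0.01 quantile, 7.88. Probes above it on at least 3 arrays entered a limma fit (version 3.58.1, R 4.3.3; lmFit and eBayes on 8 cell means of line, treatment and sex, 16 residual degrees of freedom), with Benjamini-Hochberg adjustment over all 18730 probes. A gene is called at an adjusted p under 0.05 of its probe of highest mean. Other steps used NumPy 2.4.6, pandas 2.3.3 and SciPy 1.17.1. Pairs used 100000 resamples, which can give p no smaller than 1e-05. The number of arrays limits the precision. Simulated data had the spread of these 18730 probes, independent noise and 200 changed probes picked from all of them. For AIRmax against AIRmin in saline mice, 93.5% of probes changed by a log2 of 1 and 76% of those changed by 0.5 were found again. The shares were 96.5% and 91.5% for urethane over both lines, and 84% and 34% for the interaction. They were not measured for the matrix genes, whose median SD within cells was higher (0.23, against 0.16 over all tested genes).

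The genes, lists, pairs and tests were chosen with earlier results of these data known, so no list is independent evidence. Values by group are printed for genes called in any comparison and for a fixed set of collagen, elastic fibre, proteoglycan, matricellular and protease genes. Of other lists, up to 3 called genes a comparison are named. Other cell types were read from marker lists. Mouse numbers occur once each, so no mice were paired. Alternatives were an offset of 16 before log2, normexp with an offset of 50, renewed quantile normalization, 3 filters, array weights, a robust trended prior, dropping the sex term, fitting the compared arrays alone, a squamous score covariate, leaving out mice of a squamous score above 1, the mean of a gene's probes, and leaving out each mouse.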

Additional observations from a re-analysis of the deposited data

Results flagged for a closer look

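In 104 groups of 6 mice (26 named genes in 4 groups), 6 held a mouse whose highest or lowest value lay far from the other 5 by Dixon's test, and chance picks out about 1 in 20 such groups. Col4a1 in AIRmin saline mice was highest in mouse 23, at 15.37, with the nearest mouse at 14.90. Eln in AIRmax saline mice was lowest in mouse 12, at 11.45, with the nearest at 13.09. Tnc in AIRmax saline mice was lowest in the same mouse, at 10.43, with the nearest at 10.96. Mmp2 in AIRmax saline mice was highest in mouse 11, at 14.92, with the nearest at 14.28. Mmp14 in AIRmax urethane mice was lowest in mouse 4, at 12.30, with the nearest at 12.86. Sparc in AIRmax urethane mice was lowest in mouse 4 too, at 15.59, with the nearest at 15.81. Mouse 4 is the one with the hepatocyte marker score of 6.57.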

How the results depend on the processing

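Counts are of the 47 matrix genes called by limma. Over all mice the line count was 10, and 3 without the 10 mice of high squamous score, and 9 without the sex term, which ended the calls of Col18a1 and Mmp3. In saline mice it was 5, and 3 without the sex term, 10 with array weights, 1 with the squamous score as covariate and 0 without the 10 mice, which left 1 AIRmin saline mouse assumed to vary like the others. In urethane mice it was 2, and 1 with only the arrays compared, 1 without the sex term and 1 without the 10 mice, a different gene. Array weights gave 3 genes for urethane over both lines, 3 for urethane in AIRmin and 1 for sex, where none was called. The causes were not tested. Leaving out each mouse gave 8 to 13 for the line over all mice, 1 to 7 in saline mice, 2 to 4 in urethane mice, 0 to 2 for urethane over both lines, 0 to 0 in AIRmax, 0 to 1 in AIRmin, 0 to 0 for the interaction and 0 to 1 for sex. Counts moved by over 1.5 times in saline mice without any 1 of mice 3, 9, 10, 11, 12, 18, 19, 20, 21, 22 and 24, in urethane mice without mouse 14, for urethane without mice 4 and 23 (AIRmin: 23), and for sex without mice 5, 8 and 9. Of 292 gene values under the settings other than leaving out a mouse, 256 kept direction and call, 30 lost the call, 6 gained it and 0 turned; leaving out a mouse gave 515, 48, 13 and 0 of 576. For the pairs, on the log2 values themselves Col1a1 and Col3a1 had r = 0.378 (permutation adjusted p = 0.101), Dcn and Lum 0.484 (0.0475) and Eln and Fbn1 0.457 (0.0475), each over 1.5 times lower, while Col4a1 and Col4a2 had 0.924. Without the 10 mice Col1a1 and Col3a1 had 0.642 (0.0566), Eln and Fbn1 had 0.740 (0.0732), and Spp1 and Mmp12 turned to -0.483 (0.274). No paired analysis was possible because each mouse number occurs once. Slide as a block was not run, because columns could not be assigned to slides.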
